A study of Homo sapiens with 12 samples.

Results

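Serum albumin, alpha-fetoprotein and 5 further plasma carrier genes were followed in Huh7 and HLF, 2 lines of human hepatocellular carcinoma cells. The 7 genes were ALB, AFP, AFM, GC, AHSG, TTR and RBP4. They were taken by gene name, and all 7 were found once each among the 58735 genes of the deposited tables. Both lines were wild-type and were grown in 3 ways, with 2 biological replicates in each of 6 groups. In Inject-Embed culture a cell suspension was injected into a Matrigel gel, a basement membrane extract, with 4000 Huh7 or 2000 HLF cells per well. In Mix-Embed culture the cells were mixed into Matrigel and laid on a set gel, with 20000 Huh7 or 10000 HLF cells per well. The 2D culture was the standard one, without embedding. Embedded cells were collected after 6 to 8 days and 2D cells after 2 days at about 90% confluency, all in DMEM with 10% fetal bovine serum. Embedding, time in culture and seeded cell number therefore cannot be told apart. Each line stands for 1 tumour, and poly-A RNA of the whole culture was sequenced, so a change in the share of cells that express a gene and a change in RNA per cell cannot be told apart.

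Albumin, alpha-fetoprotein, afamin and the vitamin D-binding protein (GC) form one protein family, and the genes of the first 3 stand next to each other in the human genome. In the liver, alpha-fetoprotein is the main plasma protein of fetal life, its gene is shut down after birth while albumin stays on, and it returns in many hepatocellular carcinomas, where it serves as a serum marker. Fetuin-A (AHSG), transthyretin (TTR) and retinol-binding protein 4 (RBP4) are unrelated in sequence to albumin but are likewise made by hepatocytes and secreted into plasma. Transthyretin carries thyroxine and holds RBP4, the carrier of retinol, in a complex.

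In the deposited tables (GRCh38), ALB (ENSG00000163631) lies at chr4:73397114-73421412 and AFP (ENSG00000081051) at chr4:73431138-73456174, 9.7 kb further on. AFM (ENSG00000079557) follows at chr4:73481683-73504001, after another 25.5 kb. These 3 genes lie on the plus strand, while GC (ENSG00000145321) lies 1593.1 kb before ALB on the minus strand, at chr4:71741693-71804041. AHSG (ENSG00000145192) is at chr3:186612923-186621318 on the plus strand, TTR (ENSG00000118271) at chr18:31557010-31599021 on the plus strand and RBP4 (ENSG00000138207) at chr10:93591687-93601744 on the minus strand. AHSG is overlapped by an antisense gene that had at most 30 counts in a library. RBP4 is overlapped on the other strand by FFAR4, which had at most 2 counts. The strand setting of the counting is not given in the sources used here, so reads of such pairs cannot be told apart.

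Promoter sequences were available from RefSeq (GRCh38.p14) for 5 of the 7 genes, and 4 are shown. ALB, AFP and AHSG carried the main differences between cultures described further on, and AFM is the neighbour of ALB and AFP. Each covers 250 bases before to 50 after the RefSeq start, 5′ to 3′ on the plus strand. They lie at chr4:73404037-73404336 (ALB), chr4:73435971-73436270 (AFP), chr4:73481495-73481794 (AFM) and chr3:186612810-186613109 (AHSG). The RefSeq starts of ALB and AFP lie 7173 and 5083 bases inside the genes as the deposited tables draw them. Capitals mark an HNF1 half-site (GTTAAT), an HNF4 element (CAAAGTCCA, TGGACTTTG on the other strand), a TATA box (TATAAA) and a CCAAT box (ATTGG on the other strand).
ALB: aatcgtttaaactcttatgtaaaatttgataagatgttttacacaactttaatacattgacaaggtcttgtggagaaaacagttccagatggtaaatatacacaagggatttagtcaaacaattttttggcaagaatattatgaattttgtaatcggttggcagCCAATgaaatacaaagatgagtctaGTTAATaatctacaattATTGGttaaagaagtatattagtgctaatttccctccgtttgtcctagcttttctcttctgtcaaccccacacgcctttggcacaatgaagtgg
AFP: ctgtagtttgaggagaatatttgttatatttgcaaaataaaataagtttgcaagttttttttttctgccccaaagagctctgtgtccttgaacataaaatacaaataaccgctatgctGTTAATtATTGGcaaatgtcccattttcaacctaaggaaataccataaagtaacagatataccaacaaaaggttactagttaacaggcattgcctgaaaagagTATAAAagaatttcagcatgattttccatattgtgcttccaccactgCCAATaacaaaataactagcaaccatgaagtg
AFM: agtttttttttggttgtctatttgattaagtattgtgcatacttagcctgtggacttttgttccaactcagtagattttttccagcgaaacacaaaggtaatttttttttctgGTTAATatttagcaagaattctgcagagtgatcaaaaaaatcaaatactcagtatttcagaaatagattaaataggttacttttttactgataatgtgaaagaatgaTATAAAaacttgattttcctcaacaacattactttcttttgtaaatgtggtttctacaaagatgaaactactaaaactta
AHSG: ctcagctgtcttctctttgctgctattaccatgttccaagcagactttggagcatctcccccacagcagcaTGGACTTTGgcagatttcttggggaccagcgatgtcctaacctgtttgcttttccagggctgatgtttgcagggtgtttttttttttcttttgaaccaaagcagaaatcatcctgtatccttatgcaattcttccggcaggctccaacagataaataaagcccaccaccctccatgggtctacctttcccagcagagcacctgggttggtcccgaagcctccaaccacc

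The HNF1 half-site stood in the promoters of ALB, AFP and AFM, starting 61, 132 and 137 bases before the start. Searched on both strands, it was present in 6.91% of 34796 RefSeq promoters of the same length. These promoters were not matched for base content, and the ALB, AFP and AFM windows held 33.3, 33 and 27.7% G and C. The TATA box stood 29 bases before the AFP start and 30 before the AFM start, and 11.6% of all promoters held one. ALB had none in this window, and it held 2 CCAAT boxes, an element found in 34.6% of promoters. The HNF4 element was found in AHSG alone among the 5 genes, 179 bases before the start, against 0.385% of all promoters. Neither the FOXA motif TGTTTAC (3.42% of promoters) nor the C/EBP motif TTGCGCAA (0.152%) was found in these windows in any of the 5 genes, and none of the motifs marked overlapped another in the sequences shown. The matches describe these letters and are not evidence of binding.

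The 12 libraries held 12325877 to 16041906 counts. The 7 genes took 2.04 to 2.55% of all counts in Huh7 libraries and at most 0.00109% in HLF libraries. All 10 hepatocyte markers checked had counts in each Huh7 group. Their summed level was 14660 to 14850 CPM (counts scaled to library size) in Inject-Embed, 16300 to 16520 in Mix-Embed and 17940 to 18420 in 2D. APOB (means of 6433, 5742 and 8026 CPM in the same order) and SERPINA1 (4063, 5490 and 5794) made up most of these sums. Like them, FGB and FABP1 were highest in 2D. APOA1 (2033, 2468 and 1554), HNF4A (498, 550 and 366) and CPS1 (63.3, 52.2 and 26.2) were lowest in 2D, and APOA2 and ASGR1 were highest in Mix-Embed. Of the 10, CYP3A4 was close to 0, with means of 0.321, 0.0389 and 0.569 CPM in the same order. In HLF 3 of the 10 (APOA2, APOB and FABP1) were at 0 in every library, HNF4A averaged at most 0.0625 CPM in a group, and the sums were 41.7 to 45.8 CPM in Inject-Embed, 70.6 to 77.2 in Mix-Embed and 175 to 177 in 2D. The fibrinogen chain FGB made up most of these HLF sums (means of 26.5 CPM in Inject-Embed, 44.3 in Mix-Embed and 166 in 2D), while the next largest marker, CPS1, averaged 14.4, 23.9 and 7.63 CPM and SERPINA1 2.36, 4.41 and 1.03 CPM in the same order, both lowest in 2D. Mitochondrial ribosomal RNA took 0.468 to 0.597% of counts in embedded libraries and 0.293 to 0.315% in 2D libraries, and its part in the differences was not tested. Replicates of every group differed by more than sampling noise.

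Alpha-fetoprotein RNA far exceeded the other carriers in Huh7 in all 3 cultures. Measured as FPKM (fragments per kilobase of gene, scaled to library size), which allows genes of different length to be set side by side, AFP averaged 5706 ± 236 in Inject-Embed, 6597 ± 36.1 in Mix-Embed and 7167 ± 328 in 2D (SD, n = 2 each). Among protein-coding genes it ranked 6 in both Inject-Embed libraries, 4 and 5 in Mix-Embed and 3 in both 2D libraries. Next came AHSG, RBP4 and ALB, which ranged from 93.6 to 627 FPKM. TTR lay between 19.9 and 32.2 FPKM, GC between 2.43 and 6.22, and AFM between 1.37 and 3.25. The order of AHSG, RBP4 and ALB differed by culture. In Inject-Embed AHSG and ALB overlapped and both lay above RBP4, in Mix-Embed the order was AHSG, RBP4, ALB with no overlap, and in 2D RBP4 and AHSG overlapped above ALB. In each culture TTR, GC and AFM followed in that order without overlap.

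**Figure D1:**
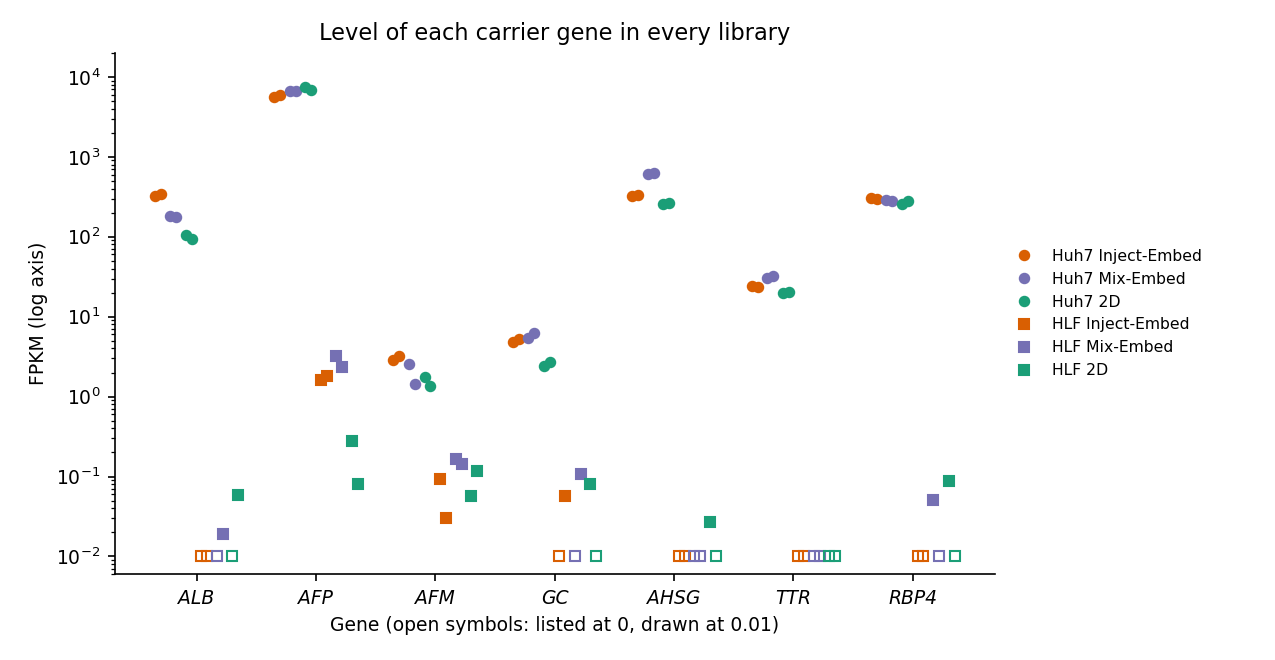
FPKM on a log axis (y) of each of the 7 genes (x) in the 12 libraries, 1 symbol per library, Huh7 as circles and HLF as squares, coloured by culture; open symbols are libraries listed at 0, drawn at 0.01. AFP lies between 5539 and 7399 FPKM in Huh7, above the other 6 genes there, and in HLF it reaches 3.22 FPKM in Mix-Embed and stays below 0.28 in 2D.

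ALB, the adult carrier, was higher in both embedded cultures of Huh7 than in 2D, and most so in Inject-Embed. Its level was 319 and 342 FPKM in the Inject-Embed libraries, 184 and 179 in the Mix-Embed libraries, and 104 and 93.6 in the 2D libraries. The 3 groups did not overlap. In edgeR's quasi-likelihood test with Benjamini-Hochberg adjustment over all 19342 genes tested, the log2 fold change was 1.71 ± 0.05 (SE) in Inject-Embed against 2D (3.27-fold, adjusted p = 7.72e-28). Between Mix-Embed and 2D it was 0.89 ± 0.05 (1.85-fold, adjusted p = 1.28e-17), and between Inject-Embed and Mix-Embed 0.82 ± 0.05 (1.77-fold, adjusted p = 5.49e-17). By FPKM rank among protein-coding genes, ALB stood at 72 and 66 in Inject-Embed, 134 and 140 in Mix-Embed, and 262 and 312 in 2D.

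AFP, the fetal carrier, went the other way by a smaller factor. It measured 5539 and 5873 FPKM in Inject-Embed, 6623 and 6572 in Mix-Embed, and 7399 and 6935 in 2D. No 2 of the groups overlapped, and both Inject-Embed libraries were the lowest. It fell in Inject-Embed against 2D (log2 fold change -0.36 ± 0.04, adjusted p = 3.65e-10) and in Inject-Embed against Mix-Embed (-0.25 ± 0.04, adjusted p = 1.67e-06). The difference between Mix-Embed and 2D was -0.11 ± 0.04 (edgeR, adjusted p = 0.0396). This call was lost in 5 of 13 alternatives, among them the fits without Mix-Embed replicate 1, Mix-Embed replicate 2 or 2D replicate 1. Over the alternatives the log2 fold change lay between -0.15 and -0.07. With limma on log2(FPKM + 1) AFP kept its call for Inject-Embed against 2D but not for Inject-Embed against Mix-Embed (adjusted p = 0.216). With limma on log2(FPKM + 0.1) the call for Inject-Embed against 2D was lost too (adjusted p = 0.449).

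Set against each other within a library, which cancels depth and scaling, ALB amounted to 5.76 and 5.82% of AFP by FPKM in Inject-Embed, 2.77 and 2.72% in Mix-Embed, and 1.40 and 1.35% in 2D. The cultures did not overlap, and the SD between replicates was 0.041 percentage points in Inject-Embed, 0.040 in Mix-Embed and 0.036 in 2D. On the log2 scale the ratio was higher by 2.07 in Inject-Embed than in 2D (4.21-fold), by 1.00 in Mix-Embed than in 2D and by 1.08 in Inject-Embed than in Mix-Embed, with a pooled SD between replicates of at most 0.0307. The exact two-sided permutation test gave p = 0.333 for each, which is the smallest it can give with 2 libraries against 2. Of the summed FPKM of ALB, AFP, AFM and GC, AFP still made up 94.4% in Inject-Embed, 97.2% in Mix-Embed and 98.6% in 2D (means, n = 2 each).

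**Figure D2:**
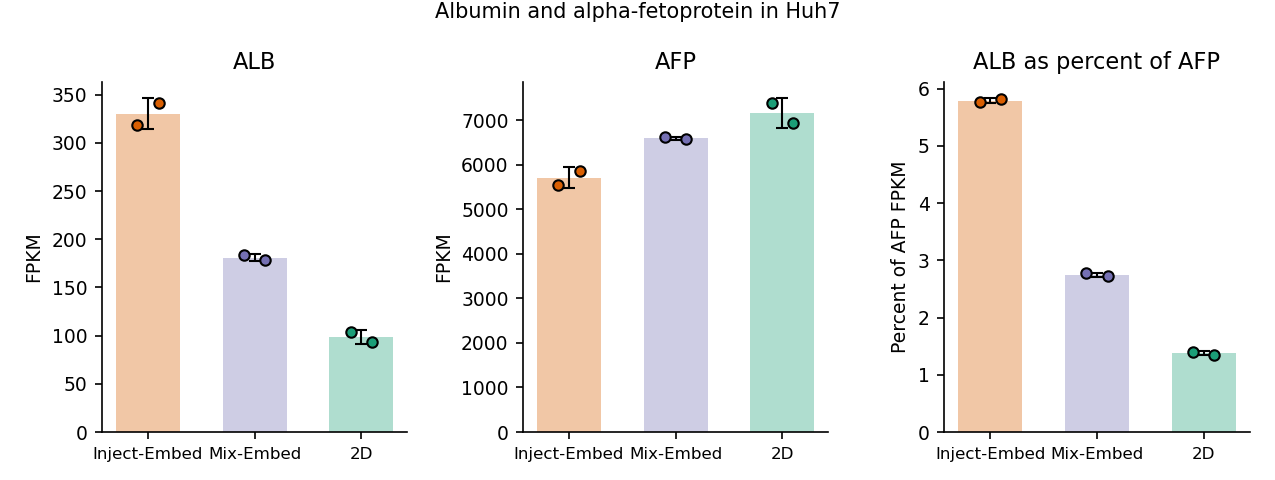
ALB and AFP in FPKM and ALB as a percentage of AFP (y axes) in Huh7 cells from Inject-Embed, Mix-Embed and 2D culture (x), with bars for means, error bars for the SD and points for the 2 libraries of each group. ALB and its ratio to AFP are highest in Inject-Embed and lowest in 2D, while AFP runs the opposite way.

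The other albumin-family genes were low in Huh7. GC, which carries vitamin D metabolites and binds actin released into plasma, was higher in both embedded cultures. It had 4.86 and 5.28 FPKM in Inject-Embed, 5.45 and 6.22 in Mix-Embed, and 2.43 and 2.71 in 2D, with both embedded groups above 2D and no overlap between them. The log2 fold change against 2D was 0.94 ± 0.21 in Inject-Embed (edgeR, adjusted p = 0.000476) and 1.19 ± 0.21 in Mix-Embed (adjusted p = 2.05e-05), and the embedded cultures did not differ beyond the error (-0.25 ± 0.20, adjusted p = 0.427). AFM, which encodes afamin, a carrier of vitamin E in plasma, had 2.87 and 3.25 FPKM in Inject-Embed, 2.58 and 1.45 in Mix-Embed, and 1.75 and 1.37 in 2D, from 112 to 179 counts per group. Inject-Embed lay above both other groups, and Mix-Embed overlapped 2D. Its log2 fold change was 0.94 ± 0.28 in Inject-Embed against 2D (adjusted p = 0.00908), a call lost without 2D replicate 2 (0.0973) or Inject-Embed replicate 2 (0.0735) and with DESeq2 (0.0561). In Mix-Embed against 2D it was 0.39 ± 0.29 (adjusted p = 0.391), and the sign turned without Mix-Embed replicate 1 (-0.09, adjusted p = 0.961). Inject-Embed exceeded Mix-Embed by 0.55 ± 0.28 (adjusted p = 0.167), and by 1.03 without Mix-Embed replicate 1, which passed the threshold (adjusted p = 0.048).

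AHSG, a mineral-binding inhibitor of calcification, was highest in Mix-Embed rather than Inject-Embed. It measured 327 and 336 FPKM in Inject-Embed, 608 and 627 in Mix-Embed, and 259 and 265 in 2D. The groups did not overlap. Its log2 fold change was 0.30 ± 0.04 in Inject-Embed against 2D (edgeR, adjusted p = 3.42e-07), 1.25 ± 0.04 in Mix-Embed against 2D (adjusted p = 8.13e-25) and -0.94 ± 0.04 in Inject-Embed against Mix-Embed (adjusted p = 3.85e-21). ALB and AHSG therefore stood in opposite order in the embedded cultures, ALB higher in Inject-Embed and AHSG higher in Mix-Embed.

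TTR followed the order seen for AHSG, with smaller differences. It had 24.5 and 23.2 FPKM in Inject-Embed, 30.0 and 32.2 in Mix-Embed, and 19.9 and 20.2 in 2D, again without overlap. It rose in Mix-Embed against 2D (log2 fold change 0.65 ± 0.09, edgeR adjusted p = 3.98e-07) and was lower in Inject-Embed than in Mix-Embed (-0.43 ± 0.09, adjusted p = 0.000327). For Inject-Embed against 2D the value was 0.22 ± 0.09 (adjusted p = 0.0676), and it passed with the library totals alone (0.0341), in a fit of the compared groups only (0.0194) and with limma on log2(FPKM + 1) (0.0158).

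RBP4, the partner of transthyretin in plasma, varied least. It measured 309 and 298 FPKM in Inject-Embed, 287 and 283 in Mix-Embed, and 254 and 283 in 2D. The Mix-Embed and 2D libraries overlapped narrowly, and the Inject-Embed libraries lay above both groups. The log2 fold change in Inject-Embed against 2D was 0.14 ± 0.05 (edgeR, adjusted p = 0.0408), which was lost in 7 of 13 alternatives, among them the fits without 2D replicate 1 (adjusted p = 0.505), Inject-Embed replicate 1 (0.223) and Inject-Embed replicate 2 (0.0507). It was 0.09 ± 0.05 in Mix-Embed against 2D (adjusted p = 0.229), which passed without 2D replicate 2 (0.18, adjusted p = 0.0191). Inject-Embed and Mix-Embed differed by 0.05 ± 0.05 (adjusted p = 0.614).

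By count, 6 of the 7 genes passed the threshold in Huh7 Inject-Embed against 2D, 5 higher and AFP lower, where 29.9% of all genes tested passed (13.2% higher and 16.7% lower). In Mix-Embed against 2D 5 of 7 passed, 4 higher and AFP lower, against 21.7% of all genes (11.2% higher and 10.6% lower). In Inject-Embed against Mix-Embed 4 of 7 passed, ALB higher and AFP, AHSG and TTR lower, against 22.9% of all genes (9.55% higher and 13.4% lower). The comparisons with 2D share the same 2D libraries. The median log2 fold change of all genes tested lay between -0.0276 and 0.0005 in these comparisons.

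**Figure D3:**
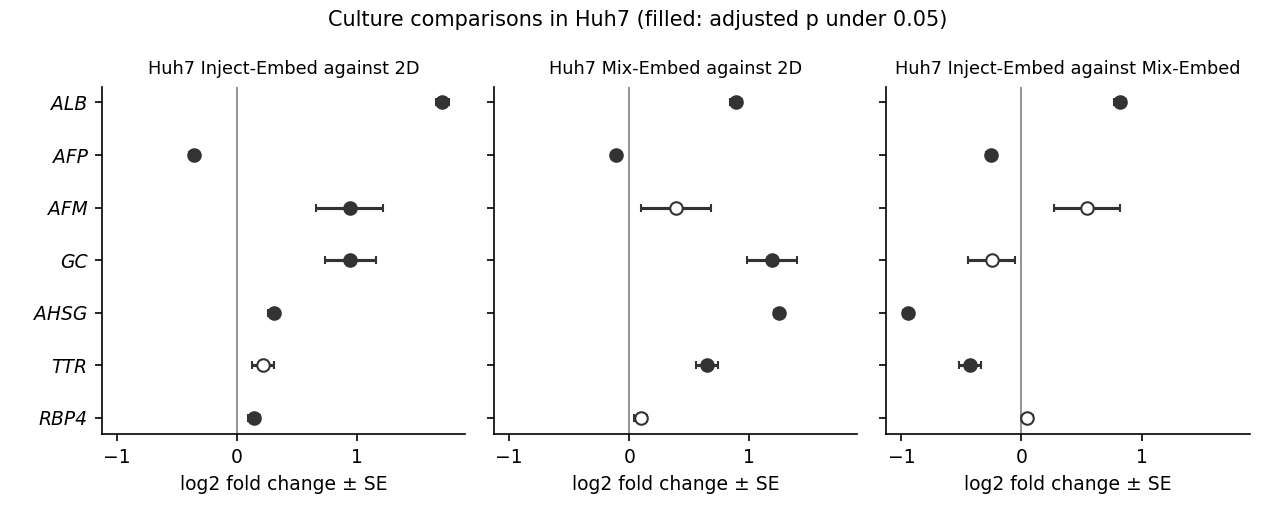
Log2 fold change with its SE (x) of the 7 genes (rows) in Huh7 for Inject-Embed against 2D, Mix-Embed against 2D and Inject-Embed against Mix-Embed, filled where edgeR's adjusted p was under 0.05. ALB lies right of 0 in all 3 panels and AFP left of 0. AHSG, TTR and GC change sides in the comparison of the embedded cultures, where GC is not called.

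In HLF, a line with few hepatocyte transcripts, AFP was the only one of the 7 genes above a handful of counts, and it was higher in both embedded cultures than in 2D. Its counts were 75 and 87 in Inject-Embed, 142 and 119 in Mix-Embed, and 14 and 4 in 2D, or 1.60 and 1.79, 3.22 and 2.35, and 0.276 and 0.0804 FPKM in the same order. The groups did not overlap. The ratio of summed counts, corrected for library size, was 9.19 for Inject-Embed against 2D (95% exact interval 5.63 to 15.9, counting error only) and 14.7 for Mix-Embed against 2D (9.15 to 25.3). The edgeR log2 fold change was 3.18 ± 0.23 in Inject-Embed (adjusted p = 8.01e-15, with 17.9% of all genes passing) and 3.86 ± 0.21 in Mix-Embed (adjusted p = 1.31e-19, with 29% passing). Both calls held in all 13 alternatives, but their size rested on the 2D libraries. Without 2D replicate 1 they were 4.31 and 4.99, without 2D replicate 2 they were 2.57 and 3.26, and with limma on log2(FPKM + 1), which shrinks changes of low genes, they were 1.20 and 1.68.

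Between the embedded HLF cultures AFP was lower in Inject-Embed by a log2 fold change of -0.68 ± 0.12 (edgeR, adjusted p = 0.000123, with 8.27% of all genes passing), with a count ratio of 0.623 (95% exact interval 0.509 to 0.761). This call was lost without Mix-Embed replicate 1 (-0.46, adjusted p = 0.113). The other 6 genes had 0 to 5 counts in each HLF library. AFM had 4 counts over the Inject-Embed libraries, 10 over Mix-Embed and 6 over 2D. GC had 2, 4 and 3, ALB 0, 1 and 3, RBP4 0, 1 and 2, and AHSG 0, 0 and 1 in the same order. TTR had no count in any of the 6 HLF libraries, where 3 counts correspond to 0.193 to 0.222 CPM. At this depth no difference between cultures was detectable for these 6 genes.

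The HLF counts of AFP were set beside those of other genes abundant in Huh7. The set was chosen after the values had been seen. It holds all protein-coding genes with at least 1000 CPM in Huh7 2D and at most 20 counts in HLF 2D. These were AFP and 6 others: APOB, TF, COL2A1, ITIH2, APOA1 and GPC3. In HLF each of these 6 had at most 3 counts over the Inject-Embed libraries, 4 over Mix-Embed and 3 over 2D, against 162, 261 and 18 for AFP. The cap of 20 counts fixed the low 2D values and left out other genes abundant in Huh7. Of those, AMBP averaged 5.78 CPM in HLF Inject-Embed, 9.07 in Mix-Embed and 1.81 in 2D. SERPINA1 (2.36, 4.41 and 1.03 CPM) had the same order. FGB (26.5, 44.3 and 166 CPM) and ALDH1A1 (178, 244 and 374.5 CPM) were highest in 2D.

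**Figure D4:**
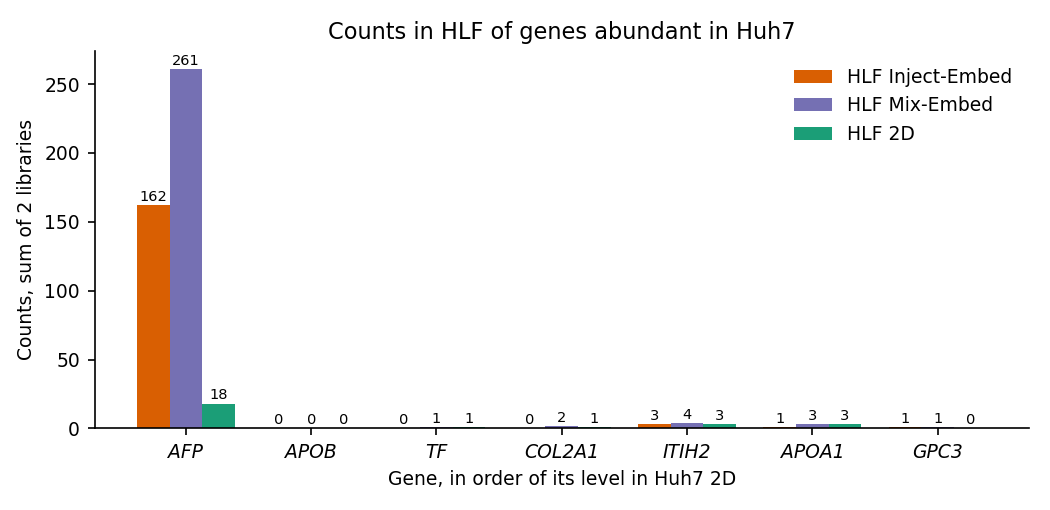
Counts summed over the 2 HLF libraries of each culture (y), coloured by culture. The genes (x, in order of their level in Huh7 2D) are AFP and 6 other protein-coding genes abundant in Huh7. All were selected to have at most 20 counts in HLF 2D. AFP reaches 162, 261 and 18 counts in Inject-Embed, Mix-Embed and 2D, and no other gene drawn exceeds 4.

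All 7 genes were far higher in Huh7 than in HLF. By summed counts corrected for library size, AFP was 3760 times higher in Huh7 than in HLF in Inject-Embed (95% exact interval 3230 to 4420), 2800 times in Mix-Embed (2480 to 3180) and 44600 times in 2D (28200 to 75200). For ALB the difference was at least 12200-fold in Inject-Embed, where HLF had no count and a floor of 3 counts over the group was used, 20800-fold in Mix-Embed (3740 to 823000) and 3810-fold in 2D (1300 to 18500). TTR was at least 627-fold higher in Huh7 in Inject-Embed, 843-fold in Mix-Embed and 549-fold in 2D. AFM differed least, by 56.2-fold in Inject-Embed (21.6 to 208), 15.6-fold in Mix-Embed (8.24 to 33.3) and 20-fold in 2D (8.91 to 55.7). All 7 genes were called higher in Huh7 in each culture, where 37.6% of all genes were in Inject-Embed, 37.9% in Mix-Embed and 38.1% in 2D.

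The response of AFP to embedding differed between the lines, with a fall in Huh7 and a rise in HLF. The interaction, Huh7 response minus HLF response, was -3.54 ± 0.23 on the log2 scale for Inject-Embed against 2D (edgeR, adjusted p = 2.61e-16) and -3.97 ± 0.21 for Mix-Embed against 2D (adjusted p = 3.28e-19), and 24.8% and 20.4% of all genes passed these tests. It was -4.67 and -5.10 without HLF 2D replicate 1, and -2.90 and -3.37 without HLF 2D replicate 2. For Inject-Embed against Mix-Embed the AFP interaction was 0.43 ± 0.13 (adjusted p = 0.033, with 10.6% of genes passing). It was lost in 7 of 17 alternatives, among them the fits without Huh7 Inject-Embed replicate 2 (adjusted p = 0.0711), HLF Inject-Embed replicate 1 (0.171) or HLF Mix-Embed replicate 1 (0.475). ALB also gave a call for Inject-Embed (5.30 ± 1.76, adjusted p = 0.0214), which rests on 3 HLF counts in 1 2D library against 0 in Inject-Embed and fell to 1.74 without that library (adjusted p = 1.0). It was lost as well without HLF Inject-Embed replicate 1 (adjusted p = 0.0711) or 2 (0.0732).

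Among 18 factors known to act on the ALB or AFP genes, HNF4A, a master regulator of hepatocyte genes, rose in both embedded Huh7 cultures and PROX1, a homeobox factor of liver development, fell in both. In Inject-Embed against 2D 4 of 18 rose and 8 fell (edgeR, median log2 fold change -0.19, against -0.01 for all genes), where 13.2% of all genes tested rose and 16.7% fell. In Mix-Embed against 2D 5 rose and 3 fell (median -0.02), against 11.2% and 10.6% of all genes. HNF4A had 513 and 483 CPM in Inject-Embed, 560 and 541 in Mix-Embed, and 359 and 373 in 2D, with log2 fold changes against 2D of 0.44 ± 0.05 (adjusted p = 9.14e-10) and 0.59 ± 0.05 (adjusted p = 7.58e-13). PROX1 had 133 and 134 CPM in Inject-Embed, 188 and 183 in Mix-Embed, and 267 and 255 in 2D, with changes of -0.97 ± 0.06 and -0.49 ± 0.06. The culture groups of both genes did not overlap.

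ZHX2, a repressor of AFP in mouse liver, moved in opposite directions. Its level was 109 and 110 CPM in Inject-Embed, 214 and 215 in Mix-Embed, and 175 and 183 in 2D, so that it fell in Inject-Embed (-0.71 ± 0.07, adjusted p = 7.5e-12) and rose in Mix-Embed (0.26 ± 0.06, adjusted p = 0.00156). ZBTB20, another repressor of AFP in mouse liver, was low, with 2.95 and 2.98 CPM in Inject-Embed, 3.90 and 5.06 in Mix-Embed, and 9.0 and 6.4 in 2D. It fell in both embedded cultures against 2D (-1.38 ± 0.23, adjusted p = 4.78e-06, and -0.79 ± 0.21, adjusted p = 0.00375). NR5A2, a nuclear receptor that activates AFP, fell in Inject-Embed (-0.49 ± 0.08) and in Mix-Embed (-0.32 ± 0.08). CEBPA, an activator of albumin transcription, rose by 0.33 ± 0.06 in Inject-Embed and 0.59 ± 0.06 in Mix-Embed, and GATA4, a zinc finger factor of liver development, by 0.32 ± 0.05 in Inject-Embed.

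**Figure D5:**
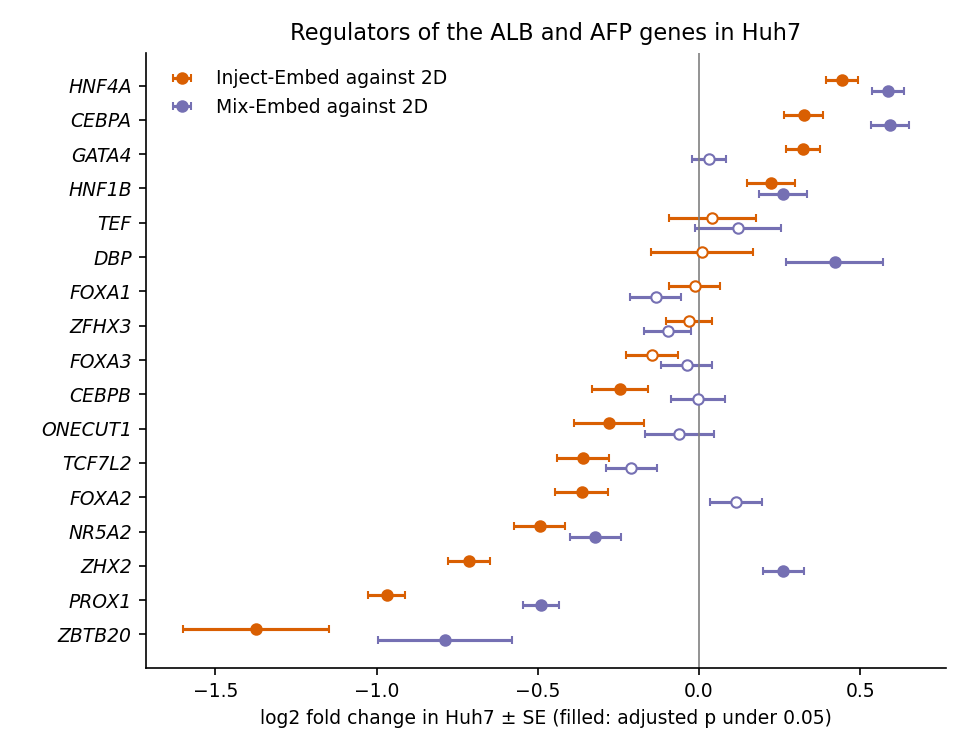
Log2 fold change in Huh7 with its SE (x) of 17 of the 18 regulators of the ALB and AFP genes (rows, sorted by the Inject-Embed value), for Inject-Embed and Mix-Embed against 2D, filled where edgeR's adjusted p was under 0.05. HNF4A and CEBPA lie right of 0 and PROX1 and ZBTB20 left of 0 in both cultures, and ZHX2 lies on opposite sides.

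In HLF most of these regulators were scarce. PROX1 had no count in any HLF library, and HNF4A averaged 0.0625 CPM in 2D. Of the 18 factors 2 rose and 3 fell in HLF Inject-Embed against 2D, where 17.9% of all genes passed, and 4 rose and 2 fell in Mix-Embed, where 29% passed. DBP, which binds the albumin promoter with a daily rhythm in rodent liver, had 25.2 and 24.5 CPM in Inject-Embed, 32.5 and 31.5 in Mix-Embed, and 15.3 and 12.1 in 2D. It rose by 0.86 ± 0.13 in Inject-Embed (edgeR, adjusted p = 1.87e-06) and by 1.22 ± 0.13 in Mix-Embed (adjusted p = 1.47e-10). Its relative TEF rose by 0.46 ± 0.16 and 1.15 ± 0.15, and GATA4 and CEBPB fell in both.

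Of 16 other secreted plasma carriers tested in Huh7, 1 rose and 8 fell in Inject-Embed against 2D (median -0.30), 7 rose and 4 fell in Mix-Embed against 2D (median 0.17), and 0 rose and 10 fell in Inject-Embed against Mix-Embed (median -0.43). Of all genes tested 29.9%, 21.7% and 22.9% passed in these comparisons. Ceruloplasmin (CP), the copper carrier, had 56.7 and 59.1 CPM in Inject-Embed, 240 and 235 in Mix-Embed, and 212 and 199 in 2D, a log2 fold change of -1.83 ± 0.07 in Inject-Embed against 2D (adjusted p = 3.21e-25). Transferrin (TF), the iron carrier, had 3413 and 3403 CPM in Inject-Embed, 6928 and 6879 in Mix-Embed, and 5233 and 5379 in 2D, and so fell in Inject-Embed (-0.64 ± 0.04) and rose in Mix-Embed (0.38 ± 0.04, adjusted p = 2.01e-11). Haptoglobin (HP) and hemopexin (HPX), which bind free hemoglobin and heme, fell in both, HP by 1.27 ± 0.06 and 0.57 ± 0.06 and HPX by 0.89 ± 0.07 and 0.44 ± 0.07. The sex hormone-binding globulin SHBG was the riser in Inject-Embed (0.95 ± 0.36, adjusted p = 0.0418, at 3.88 CPM). In Mix-Embed the carriers of sphingosine 1-phosphate and of phospholipids, APOM (0.73 ± 0.08) and APOH (0.63 ± 0.08), rose. In HLF 4 of 16 rose in Inject-Embed and 3 in Mix-Embed, and none fell, with 17.9% and 29% of all genes passing. These shares pool rises and falls. Of the 19342 genes tested, 1758 rose in HLF Inject-Embed and 2789 in HLF Mix-Embed. Whether 4 and 3 of 16 exceed this was not tested. Only SERPINA6 and TCN2 averaged more than 1.81 CPM in HLF 2D, so a fall of the others could hardly be detected. The risers included the cortisol carrier SERPINA6, with 20.2 and 20.6 CPM in Inject-Embed, 19.0 and 18.1 in Mix-Embed, and 7.62 and 8.69 in 2D. AMBP (means of 5.78, 9.07 and 1.81 CPM in the same order) and TCN2 (32.1, 44.7 and 18.0) rose in both as well. APOH rose in Inject-Embed (1.08 against 0.188 CPM).

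Of 16 tested genes that handle retinol, the cargo of RBP4, 6 rose and 0 fell in Huh7 Inject-Embed against 2D and 7 rose and 0 fell in Mix-Embed (edgeR, medians 0.21 and 0.31), with 29.9% and 21.7% of all genes passing. The retinol-binding protein RBP2, which works inside cells, had 86.3 and 93.5 CPM in Inject-Embed, 141 and 146 in Mix-Embed, and 48.3 and 57.1 in 2D (log2 fold changes 0.77 ± 0.09 and 1.45 ± 0.09). ALDH1A1, which oxidises retinal to retinoic acid, had 2558 and 2607 CPM in Inject-Embed, 1721 and 1680 in Mix-Embed, and 1349 and 1359 in 2D (0.93 ± 0.04 and 0.33 ± 0.04). CYP26A1, which degrades retinoic acid and is induced by it, had 3.71 and 3.91 CPM in Inject-Embed, 5.08 and 6.07 in Mix-Embed, and 0.40 and 0.81 in 2D (2.64 ± 0.44 and 3.19 ± 0.43). In HLF 3 rose and 4 fell in Inject-Embed, and 4 rose and 3 fell in Mix-Embed, beside 17.9% and 29% of all genes. STRA6, the cell-surface receptor of RBP4, was nearly absent in Huh7 (at most 0.08 CPM) but in HLF had 36.8 and 36.4 CPM in Inject-Embed, 64.3 and 66.2 in Mix-Embed, and 16.2 and 14.1 in 2D. Its log2 fold change in HLF was 1.27 ± 0.12 in Inject-Embed (adjusted p = 2.06e-11) and 2.10 ± 0.12 in Mix-Embed (adjusted p = 5.72e-19). ALDH1A1 fell in HLF, by 1.07 ± 0.04 and 0.62 ± 0.04.

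Of 10 genes of vitamin D metabolism and of GC uptake, 5 rose and 2 fell in Huh7 Inject-Embed and 3 rose and 2 fell in Mix-Embed against 2D, beside 29.9% and 21.7% of all genes. In HLF 2 rose and 1 fell in Inject-Embed, and 1 rose and 3 fell in Mix-Embed, beside 17.9% and 29%. CYP27A1, a sterol and vitamin D hydroxylase, rose in both lines and both embedded cultures. In Huh7 it had 108.3 and 108.4 CPM in Inject-Embed, 114 and 116 in Mix-Embed, and 51.7 and 58.4 in 2D, and in HLF 28.5 and 25.7, 27.7 and 26.5, and 15.7 and 16.6 in the same order. DAB2, of the same list, fell in both lines and both embedded cultures. Its log2 fold changes in Inject-Embed and Mix-Embed were -0.58 ± 0.08 and -0.37 ± 0.08 in Huh7, and -0.37 ± 0.07 and -0.29 ± 0.07 in HLF. LRP2 (megalin), an endocytic receptor for GC and RBP4, had 247 and 260 CPM in Huh7 Inject-Embed, 183 and 173 in Mix-Embed, and 230 and 220 in 2D, higher than 2D in Inject-Embed (0.17 ± 0.06, edgeR adjusted p = 0.0156) and lower in Mix-Embed (-0.34 ± 0.06, adjusted p = 1.12e-05). Of 8 tested genes of thyroid hormone handling, the ligand side of transthyretin, 3 rose and 0 fell in each Huh7 comparison with 2D, and 2 rose and 0 fell in each in HLF. The shares of all genes passing were 29.9% and 21.7% in Huh7 and 17.9% and 29% in HLF for Inject-Embed and Mix-Embed, so that some of these counts lie near the background. The receptor THRA was called in all 4, with changes of 0.49 ± 0.08 and 0.47 ± 0.08 in Huh7 and 0.51 ± 0.08 and 0.62 ± 0.08 in HLF for Inject-Embed and Mix-Embed.

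FCGRT, the neonatal Fc receptor that returns albumin from endosomes to the circulation, rose in both lines and both embedded cultures. It had 103 and 95.6 CPM in Huh7 Inject-Embed, 101 and 109 in Mix-Embed, and 69.65 and 70.95 in 2D. In HLF it had 16.7 and 17.0 CPM in Inject-Embed, 22.9 and 24.8 in Mix-Embed, and 8.80 and 8.88 in 2D. The embedded libraries lay above the 2D libraries in both lines (log2 fold changes 0.50 ± 0.07 and 0.57 ± 0.07 in Huh7, 0.93 ± 0.12 and 1.43 ± 0.11 in HLF). Among the 8 tested genes of albumin binding and recycling, 3 rose and 2 fell in Huh7 Inject-Embed and 2 rose and 1 fell in Mix-Embed, beside 29.9% and 21.7% of all genes passing. In HLF 3 rose and 3 fell in Inject-Embed, and 4 rose and 3 fell in Mix-Embed, beside 17.9% and 29%. CAV1, a coat protein of the caveolae through which albumin crosses cells, fell in HLF by 0.63 ± 0.05 and 0.96 ± 0.05. In Huh7 it rose in Mix-Embed (0.32 ± 0.09). CALR fell in Huh7, with log2 fold changes of -0.33 ± 0.04 in Inject-Embed and -0.20 ± 0.04 in Mix-Embed. In HLF CALR rose slightly in both (0.126 ± 0.04 and 0.105 ± 0.04).

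Of 15 genes that fold, process or export albumin and other secreted proteins, 1 rose and 6 fell in Huh7 Inject-Embed against 2D and 1 rose and 7 fell in Mix-Embed (edgeR, medians -0.02 and -0.21), where 16.7% and 10.6% of all genes fell. The disulfide isomerase PDIA3 had 515 and 497 CPM in Inject-Embed, 492 and 499 in Mix-Embed, and 627 and 584 in 2D (-0.26 ± 0.04 and -0.29 ± 0.04). LMAN1, a cargo receptor for export from the endoplasmic reticulum, fell by 0.41 ± 0.05 and 0.23 ± 0.05. FURIN, which cleaves the propeptide of albumin, rose in Mix-Embed (0.34 ± 0.05, adjusted p = 4.51e-07).

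For the 6 carriers other than AFM, which was too low, the genes whose level followed each most closely over the 6 Huh7 libraries were looked for among 3246 genes with a mean of at least 10 CPM and a log2 range of at least 0.5. With 3 groups of 2 such values mostly reflect the order of the 3 cultures, and no p is given. ALB was followed most closely by FBLN5, an elastic fibre protein (Pearson r = 0.998), NQO1, a quinone reductase, and SLC30A1, a zinc exporter. SLC30A1 averaged 106 CPM in Inject-Embed, 55.0 in Mix-Embed and 21.7 in 2D. AFP was followed by GLO1 (r = 0.997), RCN1 and PHC1, AHSG by ERRFI1 (r = 0.999), HOOK2 and ZNF581, and TTR by CYP4V2, ERBB2 and PFKFB3. GC was followed by MUTYH, CES1 and TMEM8B, of which the carboxylesterase CES1 averaged 15.8 CPM in Inject-Embed, 24.2 in Mix-Embed and 2.15 in 2D. Of the 6, RBP4 had the lowest values, led by LSM7 (r = 0.989).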

How the data were processed

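Poly-A RNA of 12 libraries, 2 biological replicates for each of 2 lines in 3 cultures, was sequenced as paired reads on an Illumina NovaSeq, per the labels' protocols. The submitters' processing notes name FastQC, Trimmomatic, STAR 2.7.9a, featureCounts and the genome GRCh38 (hg38). The sources used here do not give how these steps were ordered and set, or which annotation release was used. The authors deposited raw counts per gene and FPKM for the same genes. Each deposited FPKM was the count over gene length and library total, within a relative 1e-05 for all 167453 values with at least 20 counts.

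The 7 genes and the gene lists were chosen with earlier results of these data known. Counts were tested with edgeR 4.0.16 in R 4.3.3 by quasi-likelihood tests on all 12 libraries with 6 group means, TMM scaling and filterByExpr at 10 counts, which left 19342 genes. P-values were adjusted by Benjamini-Hochberg over these genes, with a threshold of 0.05. CPM were computed from counts and TMM-scaled totals. Same-numbered libraries of different groups showed no shared deviation, with 0 of 15 correlations above 0.1, and were not paired in the fit. The correlations took in low genes with much counting noise, so they cannot show that the samples were unpaired. The edgeR p-values rest on the spread between the 2 libraries of a group, estimated jointly over the 6 groups and with information shared between genes. All 7 genes are named. In the lists, 1 gene is counted but not reported here. From each of 7 lists (100 genes, all in the table) a selection is named of the 4 genes of smallest adjusted p and of 2 that moved against the majority. ZBTB20 was named outside that rule, and so in part were CYP26A1, CEBPA, LRP2 and LMAN1, after their values were seen. Intervals of count ratios are exact at 95% and cover counting error only. Alternatives were other scalings, filters, DESeq2 1.42.0, limma 3.58.1 on log2(FPKM + 1) and log2(FPKM + 0.1), the compared groups only, a replicate block and each library left out. Python 3.11.15, pandas 2.3.3, scipy 1.17.1 and matplotlib 3.10.9 served for tables, exact tests and figures.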

Additional observations from a re-analysis of the deposited data

Results flagged for a closer look

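Differences between the lines under the same contrast passed edgeR's interaction test for 4 results. The AFP response to Inject-Embed differed by -3.54 on the log2 scale (Huh7 minus HLF, higher in 2 of 2 HLF Inject-Embed libraries and lower in 2 of 2 Huh7 Inject-Embed libraries than in both 2D libraries of the line), and its response to Mix-Embed by -3.97, with the same pattern in the libraries. The AFP difference between Inject-Embed and Mix-Embed was 0.43, with Inject-Embed lower than Mix-Embed in both lines. The ALB response to Inject-Embed differed by 5.30, with 0 counts in HLF Inject-Embed and 3 in HLF 2D. Groups of 2 libraries allowed no test for a library that stands apart.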

How the results depend on the processing

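Of 380 values of single genes under alternatives, 341 kept direction and side of the threshold, 33 lost and 5 gained their call, and 1 reversed, AFM in Huh7 Mix-Embed against 2D without Huh7 Mix-Embed replicate 1 (-0.0948, adjusted p = 0.961, against 0.736 without Huh7 Mix-Embed replicate 2). ALB and AHSG kept their calls in all 13 alternatives of each Huh7 comparison. The pseudocount of 0.1 in limma left 2 of the 7 genes called in Huh7 Inject-Embed against 2D (6 in edgeR), 3 in Huh7 Mix-Embed against 2D (5 in edgeR) and 0 in HLF Inject-Embed against Mix-Embed (1 in edgeR), and AFP in Huh7 Inject-Embed against 2D had an adjusted p of 0.449. GC lost its calls there too (0.11 and 0.081). Leaving out 1 library gave 0 to 1 in HLF Inject-Embed against Mix-Embed. The line difference in the Inject-Embed response was called for 2 genes, for 5 with limma on log2(FPKM + 1) and for 1 to 2 without 1 library. That in the Mix-Embed response was called for 1 gene, for 5 with log2(FPKM + 1) and for 4 with log2(FPKM + 0.1). That between Inject-Embed and Mix-Embed was called for 1 gene, for 0 without a filter, for 0 with DESeq2, for 3 with log2(FPKM + 1) and for 0 to 1 without 1 library. The causes of these shifts were not tested. The replicate block changed none of these counts (6, 5 and 4 genes called in the Huh7 comparisons), and same-numbered libraries did not deviate together (r from -0.024 to 0.022). Counts of 0 to 5 per library limit 6 of the 7 genes in HLF.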
